A study of Mus musculus with 5 samples.

Results

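The genes of fibroblast growth factor (FGF) signalling described here, the ligand genes Fgf9 and Fgf10, the receptor gene Fgfr2, the co-receptor gene Klb and the target genes Etv1 and Etv4, were read in the mouse embryonic tissues from which liver and pancreas arise. They were found by exact gene name, 1 locus each, and make up 6 of the 12375 loci with a gene name in a table of 14053 loci. All tissues came from C57BL/6J embryos, with no transgene and no treatment named. They were liver, ventral pancreas and dorsal pancreas of embryos at E10.5, and foregut and medial foregut at the earlier stage E8.5, both in days of embryonic development. Each tissue gave a single library. Replicate error is therefore unknown, nothing was tested, and every value describes 1 library. The sources used here give neither the way of isolating the tissue nor any pooling of embryos.

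FGF ligands are secreted proteins that bind receptor tyrosine kinases on neighbouring cells together with heparan sulfate. The receptors signal through RAS and the MAP kinases to a small group of ETS transcription factors, the PEA3 group (Etv1, Etv4 and Etv5), and to feedback inhibitors such as the Sprouty proteins. In the mouse embryo, FGF10 from the mesenchyme around the pancreatic buds keeps the epithelial progenitors dividing through an epithelial form of FGFR2, and FGF signals from the cardiac mesoderm promote liver fate in the ventral foregut. KLB, known as beta-Klotho, is the co-receptor through which FGF15 (FGF19 in humans) and FGF21 act.

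The loci, on the mm9 coordinates of the table, were chr14:58687284-58731698 on the plus strand for Fgf9, chr13:119581055-119581962 on the plus strand for Fgf10, chr7:137298468-137410126 on the minus strand for Fgfr2, chr5:65739360-65778359 on the plus strand for Klb, chr12:39505627-39507557 on the plus strand for Etv1 and chr11:101631059-101646653 on the minus strand for Etv4. None overlapped another locus of the table, and each lay on the strand of the annotated gene. The Fgf10 locus spanned 908 bp, or 1.17% of the RefSeq gene, and the Etv1 locus 1931 bp, or 2.14%, so the values of both rest on a short stretch of the gene. The Fgfr2 locus spanned 3.77% of the gene in GENCODE M21, where the gene is 2960900 bp long, but 107% of the RefSeq gene of 104358 bp, so it is partial only against the longer annotation. The loci of Fgf9, Klb and Etv4 spanned 105%, 101% and 100.2% of the RefSeq gene.

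To show what lies next to the genes counted between ventral and dorsal pancreas, the 250 bases before the RefSeq start of the 2 ligand genes and of Klb are given on the gene's strand (RefSeq, GRCm38.p6, chr14:58072436-58072685, chr13:118714449-118714698 and chr5:65348161-65348410). Capitals mark motif matches.
Fgf9: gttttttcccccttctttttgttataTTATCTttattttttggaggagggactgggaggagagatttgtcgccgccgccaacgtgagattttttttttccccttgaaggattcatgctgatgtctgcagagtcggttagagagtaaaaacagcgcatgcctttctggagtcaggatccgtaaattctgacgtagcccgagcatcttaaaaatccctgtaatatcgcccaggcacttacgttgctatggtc
Fgf10: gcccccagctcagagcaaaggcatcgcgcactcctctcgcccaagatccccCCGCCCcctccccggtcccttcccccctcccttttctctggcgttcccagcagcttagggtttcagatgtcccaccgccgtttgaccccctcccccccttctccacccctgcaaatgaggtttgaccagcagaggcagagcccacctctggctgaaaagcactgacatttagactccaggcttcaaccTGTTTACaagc
Klb: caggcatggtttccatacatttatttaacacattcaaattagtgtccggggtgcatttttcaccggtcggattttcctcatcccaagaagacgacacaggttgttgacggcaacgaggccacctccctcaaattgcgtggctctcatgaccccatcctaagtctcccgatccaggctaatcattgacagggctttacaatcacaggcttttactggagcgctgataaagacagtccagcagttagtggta

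RefSeq windows were at hand for 5 of the 6 genes, with 2 starts for Etv1. Both strands were searched for 7 motifs, and the share of all 32851 RefSeq windows of this length that held each is given. The Fgf9 window held a motif of the GATA factors, AGATAA, on the reverse strand at position -224 from the start, as did 9.99% of all windows. The Fgf10 window held a motif of the FOXA factors, TGTTTAC, at position -11, as did 3.17% of all windows. It also held the binding motif of SP factors, the GC box GGGCGG, on the reverse strand at position -199, as did 32.7%. A window of Etv1 held the letters of the TATA box, TATAAA, on the reverse strand at position -114. On either strand, 12.4% of all windows held these letters. The letters CCGGAA, a form of the ETS factor motif that is longer than its core, were in none of the members' windows and in 12.03% of all. Part of the HNF1 motif, GTTAAT, was likewise in none of them and in 6.43% of all windows. The CCAAT box was in none of them and in 33.8% of all. The windows of Fgfr2 and Klb held no match to the letters searched, and no matches overlapped. Other forms of these motifs were not searched. The Fgf9, Fgf10 and Klb windows held 11, 8 and 9 CpG dinucleotides, against a median of 6 over all windows. A match is a description of letters and not evidence of binding.

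The labels were checked against marker genes. Liver carried 5338 FPKM (sequenced fragments, scaled for transcript length and library size) summed over 7 hepatoblast markers, ventral pancreas 521 and dorsal pancreas 54.6, and 6 pancreatic progenitor markers summed to 2.60, 129 and 137 FPKM in the same 3 libraries, with Ptf1a listed at 0 in liver. The libraries also held markers of other cells. Smooth muscle and heart markers (9 genes) summed to 563, 25.8 and 18.6 FPKM in these E10.5 libraries, but to 5507 in foregut and 9374 in medial foregut. Mesenchyme markers (11 of 13 found, none at 0) summed to 131, 91.7, 274, 112 and 167 FPKM in liver, ventral pancreas, dorsal pancreas, foregut and medial foregut, and 8 endoderm epithelium markers to 432, 1332, 713, 756 and 1035 FPKM.

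Both ligand genes were high in the dorsal pancreas. Fgf9, which encodes a ligand made by mesothelium and epithelium in several organs, was at 0.238 FPKM in liver, 0.477 in ventral pancreas, 17.6 in dorsal pancreas, 0.266 in foregut and 0.0779 in medial foregut. Fgf10, the mesenchymal ligand, stood at 0.573, 0.740, 15.5, 1.78 and 3.96 FPKM in the same order. Fgf9 was near 0 in every library but the dorsal pancreas, while Fgf10 was also above 1 FPKM in both E8.5 libraries. In bulk tissue, fewer cells of a type and less RNA per cell cannot be told apart.

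**Figure D1:**
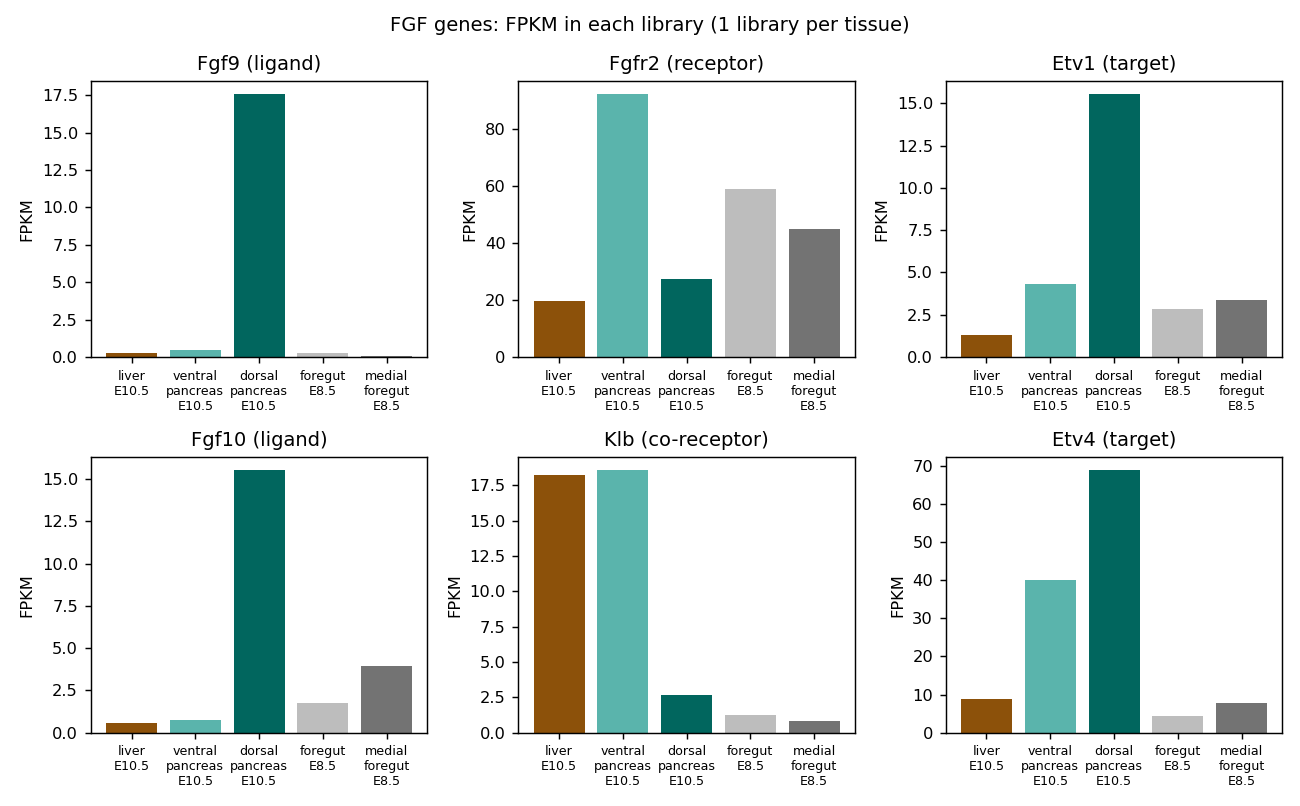
Bars give the FPKM of each of the 6 genes in the 5 libraries, 1 library per tissue, each panel on its own linear axis from 0. Fgf9, Fgf10, Etv1 and Etv4 were highest in dorsal pancreas, Fgfr2 in ventral pancreas (92.3 FPKM), and Klb was at 18.2 FPKM in liver and 18.6 in ventral pancreas.

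Differences were taken on the log2(FPKM + 1) scale, which understates those of low genes. By the size rule, a gene counts as higher or lower if it differs by 2 or more and reaches 5 FPKM in the higher library. In liver minus dorsal pancreas, 5 of the 6 genes were counted, Klb as higher and Fgf9, Fgf10, Etv1 and Etv4 as lower, where 2.12% of all named loci were counted as higher and 3.35% as lower. The difference was -3.91 for Fgf9 and -3.39 for Fgf10. In ventral minus dorsal pancreas, Klb was counted as higher and both ligand genes as lower, where 0.913% of all loci were higher and 0.768% lower. Fgf9 differed by -3.65, the 11th lowest of 12375 loci, and Fgf10 by -3.25, the 20th lowest. In liver minus ventral pancreas, the differences of the ligand genes were small, at -0.25 for Fgf9 and -0.15 for Fgf10, where the median over all loci was -0.17. Fgf9 was also among the 33 loci (0.267%) that were counted as higher in dorsal pancreas than in each of the other 4 libraries. Fgf10 was not, since the difference from medial foregut was 1.74. None of the 6 genes was so counted in liver, ventral pancreas, foregut or medial foregut, where 0.824%, 0.162%, 0.0162% and 0.00808% of all loci were.

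**Figure D2:**
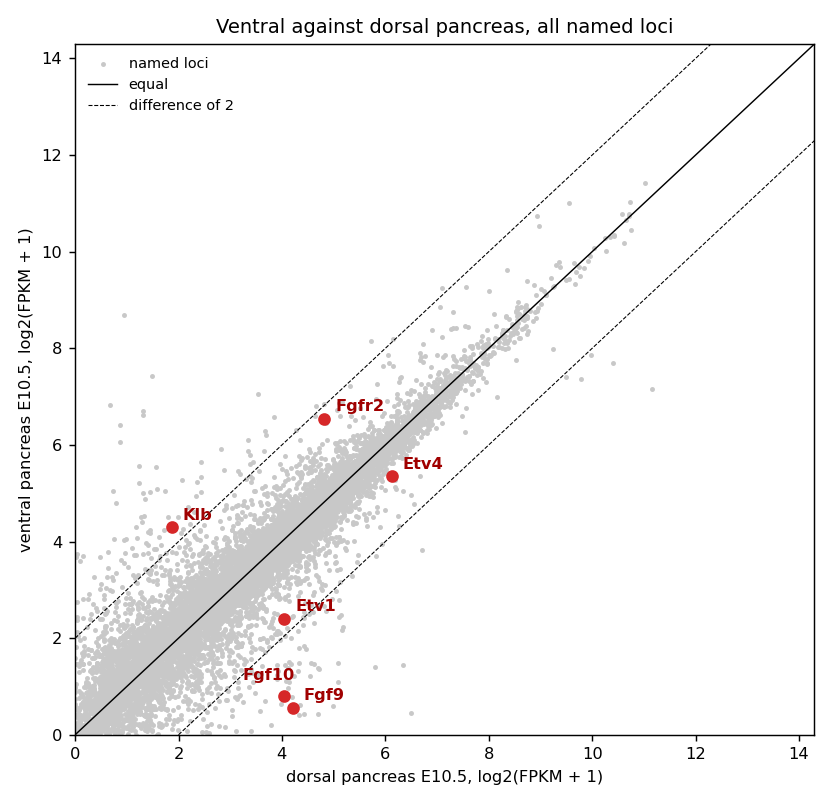
Each grey point is a named locus, with log2(FPKM + 1) in ventral pancreas on the y axis and in dorsal pancreas on the x axis; the solid line marks equal values, the dashed lines a difference of 2, and red points the 6 FGF genes. Fgf9 and Fgf10 lie below the lower dashed line (differences of -3.65 and -3.25), Klb above the upper one (2.42), and Fgfr2, Etv1 and Etv4 between them.

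Between the pancreatic libraries, most mesenchyme markers had the order of the ligand genes. Of the 11 markers found, 2 were higher in ventral and 9 in dorsal pancreas, where 48.2% of all loci were lower in ventral pancreas. Of the 10 with a mean of at least 1 FPKM, 4 were counted as lower in ventral pancreas, where 0.768% of all loci were. Pdgfrb (2.72 and 2.96 FPKM) and Col1a2 (35.1 and 36.4 FPKM) were nearly equal in ventral and dorsal pancreas. The Col1a2 locus covered 8.89% of the annotated gene. Tcf21, among the 9 higher in dorsal pancreas, had a mean of 0.469 FPKM and a locus on the strand opposite to the annotated gene. Barx1, a stomach mesenchyme factor, had 0.360 FPKM in the ventral and 89.3 FPKM in the dorsal bud. Foxf1a, a gut mesenchyme factor, had 1.48 and 18.8 FPKM there, and the growth factor receptor gene Pdgfra 3.48 and 35.0 FPKM. The collagen gene Col1a1 (20.8 and 15.7 FPKM) and the limb and craniofacial mesenchyme factor gene Prrx1 (2.33 and 0.589 FPKM) had the opposite order. In liver against dorsal pancreas the markers were mixed, with 5 of 11 higher in liver, and 7 of 11 were higher in liver than in ventral pancreas. Of the 4 mesothelium markers, 2 were higher in ventral pancreas and 2 in dorsal pancreas, with sums of 4.24 and 6.92 FPKM. Other cell types differed too. In dorsal pancreas 6 of 7 endothelium, 5 of 5 endocrine, 5 of 6 pancreatic progenitor and 4 of 4 leukocyte markers were higher. In ventral pancreas 7 of 7 hepatoblast, 7 of 8 endoderm epithelium, 6 of 9 smooth muscle and heart and 3 of 3 red cell markers were higher. Of 8 neural markers 4 were higher in dorsal pancreas. The part of any of these cells in the Fgf9 and Fgf10 values was not tested.

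Other ligand genes were high at E8.5. Of 22 listed, 9 were found, and 5 of these were measured, which here means a mean over all libraries of 1 FPKM or more. Fgf8, a ligand of the early heart field and pharyngeal endoderm, had 0.0387, 0.0745 and 0.115 FPKM in liver, ventral pancreas and dorsal pancreas, against 4.67 FPKM in foregut and 13.2 FPKM in medial foregut. Fgf15, which later signals from gut to liver, had 0.00308, 0.0293 and 0.0465 FPKM in the E10.5 tissues, against 13.9 and 6.75 in the E8.5 tissues. Fgf13, an intracellular family member that is not secreted, had 0.216, 1.06 and 2.32 FPKM in the E10.5 tissues against 7.94 and 8.26 FPKM in the E8.5 tissues. The 9 genes summed to 3.35, 3.08, 36.9, 29.6 and 34.3 FPKM in liver, ventral pancreas, dorsal pancreas, foregut and medial foregut. Fgf9 and Fgf10 made up 47.7% and 42.1% of that sum in dorsal pancreas, with Fgf10 read from a partial locus. Fgf1, Fgf5, Fgf6 and Fgf7 were under 1.27 FPKM in all 5 libraries. The Fgf7 locus covered only 2.50% of the annotated gene, and the Fgf1 locus had the same coordinates as that of Spry4.

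Fgfr2 was highest in the ventral pancreas. It encodes a receptor whose alternative forms bind FGF10 in epithelium or FGF9 in mesenchyme, and the table does not separate the forms. It was at 19.8 FPKM in liver, 92.3 in ventral pancreas, 27.3 in dorsal pancreas, 58.9 in foregut and 44.9 in medial foregut. In descending order the libraries ran ventral pancreas, foregut, medial foregut, dorsal pancreas and liver. In liver minus ventral pancreas, Fgfr2 and Etv4 were the 2 genes counted, both as lower, where 2.76% of all loci were lower and 1.24% higher. The Fgfr2 difference was -2.17, which was -1.93 under median-ratio rescaling and -1.97 with a pseudocount of 5 FPKM. In ventral minus dorsal pancreas it was 1.72, short of the size rule, and the 181st highest of all loci. Of the 8 endoderm epithelium markers, 7 were higher in ventral pancreas than in liver and 7 higher than in dorsal pancreas. Their sum in ventral pancreas was 3.08 times that of liver and 1.87 times that of dorsal pancreas, against 4.67 and 3.38 times for Fgfr2. Single markers ranged widely in liver minus ventral pancreas, with Epcam (-3.55), Cldn6 (-3.44), Cldn4 (-3.32) and Cdh1 (-2.55) beyond Fgfr2 and Foxa1 (1.08) on the other side of 0. The part of epithelial content in these differences was not tested.

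**Figure D3:**
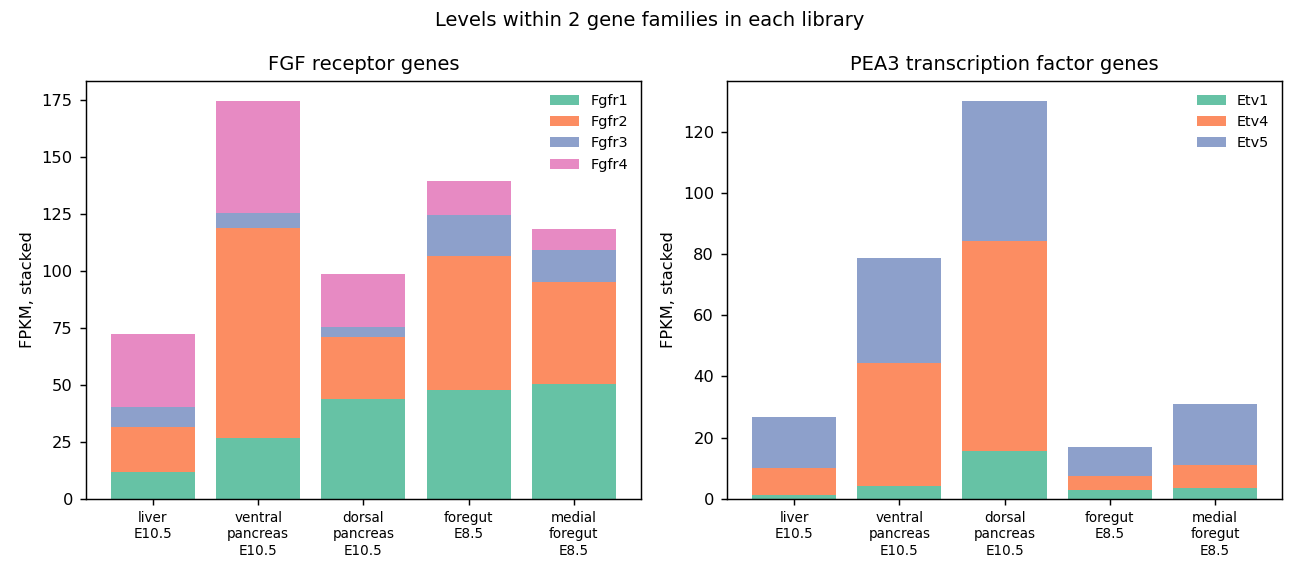
Stacked bars give the FPKM of Fgfr1 to Fgfr4 (left) and of Etv1, Etv4 and Etv5 (right) in each library, 1 library per tissue. Fgfr2 makes up 52.9% of the receptor sum in ventral pancreas, Fgfr4 44.6% in liver and Fgfr1 44.2% in dorsal pancreas, and the PEA3 sum is 130 FPKM in dorsal pancreas against 16.9 in foregut.

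The leading receptor gene was a different one in each of the 3 E10.5 tissues. In liver, Fgfr4, the receptor partner of KLB in hepatocytes, led with 32.3 FPKM, or 44.6% of the summed level of Fgfr1 to Fgfr4. In ventral pancreas Fgfr2 led with 52.9%, followed by Fgfr4 with 28.2% (49.3 FPKM). In dorsal pancreas Fgfr1, a receptor with wide mesenchymal use, led with 44.2% (43.6 FPKM), followed by Fgfr2 with 27.7% and Fgfr4 with 23.6%. At E8.5 Fgfr1 and Fgfr2 together led, with 34.3% and 42.2% in foregut and 42.4% and 38.0% in medial foregut. Fgfr1 itself was at 11.5 FPKM in liver, 26.6 in ventral pancreas, 43.6 in dorsal pancreas, 47.8 in foregut and 50.1 in medial foregut. Fgfr3 was lower in each E10.5 library (8.86, 6.37 and 4.42 FPKM) than in foregut and medial foregut (17.8 and 14.0 FPKM). Of the 7 listed receptor and co-receptor genes 6 were measured, and only Fgfr2 and Klb were counted in any comparison. Fgfrl1, encoding a receptor without a kinase domain, was between 26.5 and 40.6 FPKM in all 5 libraries, and Kl, the co-receptor for FGF23, was between 0.0623 and 1.301 FPKM. The summed receptor level was 72.4 FPKM in liver, 175 in ventral pancreas, 98.5 in dorsal pancreas, 139 in foregut and 118 in medial foregut.

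Klb was shared by liver and ventral pancreas. It was at 18.2 FPKM in liver, 18.6 in ventral pancreas, 2.67 in dorsal pancreas, 1.23 in foregut and 0.807 in medial foregut. Liver and ventral pancreas were nearly equal, with a difference of -0.03 that changed sign under median-ratio (0.20) and upper-quartile rescaling (0.04). Ventral minus dorsal pancreas gave 2.42, the 79th highest of 12375 loci, and liver minus dorsal pancreas 2.39, the 213th highest; a pseudocount of 5 FPKM brought these under the size rule, to 1.62 and 1.60. The sum of the 7 hepatoblast markers in ventral pancreas was 0.0975 times that of liver. Single markers varied, with Alb at 1051 FPKM in liver and 97.0 in ventral pancreas, and Cebpa at 47.3 and 18.0. All 7 markers were higher in ventral than in dorsal pancreas, with sums of 521 and 54.6 FPKM. The part of hepatoblast content in the Klb values was not tested. Of the 9 listed genes of the bile acid arm, 4 were found. Besides Klb, Fgfr4 had 32.3, 49.3 and 23.2 FPKM in liver, ventral pancreas and dorsal pancreas, with a liver minus dorsal pancreas difference of 0.46 that was not counted, while the ligand gene Fgf15 was at or under 0.0465 FPKM in each E10.5 library.

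Against the earlier stage, Klb was counted as higher in liver, alone among the 6 genes, where 2.29% of all loci were higher and 2.12% lower than in both E8.5 libraries. The differences were 3.11 from foregut and 3.41 from medial foregut. In ventral pancreas Klb (3.13 and 3.44) and Etv4 (2.92 and 2.23) were counted as higher, where 1.96% of all loci were higher and 1.49% lower. In dorsal pancreas Fgf9 (3.88 and 4.11) and Etv4 (3.69 and 2.998) were counted as higher, where 1.45% were higher and 1.18% lower. These comparisons share the 2 E8.5 libraries. Klb stood at 2.67 FPKM in dorsal pancreas against 1.23 and 0.807 in foregut and medial foregut, differences of 0.72 and 1.02, and was not counted.

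**Figure D4:**
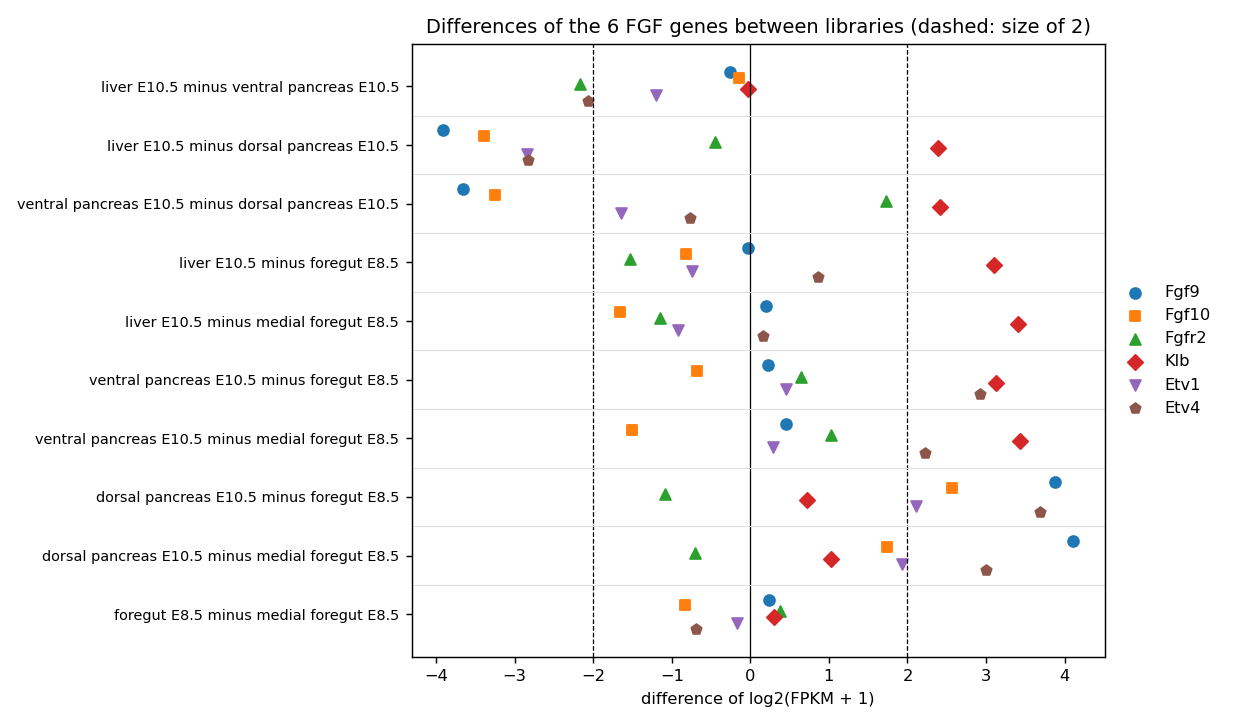
Each symbol is the difference of log2(FPKM + 1) of 1 gene between 2 single libraries, named on the y axis as first minus second, and dashed lines mark a size of 2. Klb lies beyond 2 wherever liver or ventral pancreas is set against dorsal pancreas or an E8.5 library, and no gene lies beyond 2 between the E8.5 libraries.

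The target genes stood highest in dorsal pancreas. Etv4 was at 8.83 FPKM in liver, 40.0 in ventral pancreas, 69.0 in dorsal pancreas, 4.41 in foregut and 7.75 in medial foregut. Both pancreatic libraries were thus well above liver and E8.5 tissue, and ventral minus dorsal pancreas gave -0.77, which the size rule does not count. Liver minus dorsal pancreas gave -2.83 and liver minus ventral pancreas -2.06; the last missed the size rule under median-ratio (-1.83) and upper-quartile (-1.99) rescaling and with a pseudocount of 5 FPKM (-1.70). Etv1, read from a partial locus, was at 1.304 FPKM in liver, 4.30 in ventral pancreas, 15.5 in dorsal pancreas, 2.85 in foregut and 3.35 in medial foregut. Its ventral pancreas level was close to that of the E8.5 tissues, unlike that of Etv4. Liver minus dorsal pancreas gave -2.84 for Etv1 and ventral minus dorsal pancreas -1.64, the 173rd lowest of all loci, which was not counted. Endocrine cell markers (5 of 7 found) summed to 1.61 FPKM in liver, with Ins1 listed at 0, 243 in ventral pancreas, 1456 in dorsal pancreas, 42.9 in foregut and 20.3 in medial foregut, with Gcg and Ins1 listed at 0 in both E8.5 libraries. Pax6, also a neural gene, carried nearly all of the E8.5 sums, with 42.6 FPKM in foregut and 20.0 in medial foregut. The part of these cells and of the mesenchyme in the target gene and inhibitor values was not tested.

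Etv5, the remaining PEA3 factor, stood at 16.8, 34.4, 45.7, 9.59 and 19.9 FPKM in liver, ventral pancreas, dorsal pancreas, foregut and medial foregut, so all 3 factors had the same order among the E10.5 tissues. The 3 genes summed to 26.9, 78.7, 130, 16.9 and 31.0 FPKM in that order of libraries. Etv4 made up 50.8% of the sum in ventral and 53.0% in dorsal pancreas, while Etv5 led in liver (62.3%), foregut (56.9%) and medial foregut (64.1%). Other growth factor response genes had other orders. Fos, an immediate early gene, had 11.1, 3.51 and 3.38 FPKM in liver, ventral pancreas and dorsal pancreas. Ccnd1, encoding cyclin D1, had 109.6, 98.1 and 73.6 FPKM in these libraries. Of the 8 listed target factors, all measured, Etv1 and Etv4 were counted as lower in liver than in dorsal pancreas and 6 were not counted; the list's median difference was -0.07 against -0.16 over all loci, and under median-ratio rescaling 0.10 against 0.01.

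Feedback inhibitor genes were also lower in ventral than in dorsal pancreas, though none by the size rule. All 10 measured inhibitors of 12 listed had a difference below 0, under every scaling tried, with a median of -0.68, where 48.2% of all loci were below 0 and the median was 0.01. Il17rd, whose product blocks FGF receptor signalling, was at 1.48 FPKM in liver, 9.65 in ventral pancreas, 29.0 in dorsal pancreas, 6.14 in foregut and 13.1 in medial foregut. Dusp6, a MAP kinase phosphatase, stood at 15.9, 12.7, 29.1, 7.36 and 12.3 FPKM, and the Sprouty gene Spry2 at 7.33, 14.6, 23.8, 7.68 and 15.5. In liver minus dorsal pancreas, 9 of the 10 were below 0 and Il17rd and Dusp4 were counted as lower, with a median of -0.86, where 61.1% of all loci were below 0 and the median was -0.16. Il17rd was also counted as lower in liver than in ventral pancreas (-2.10). Dusp5, another phosphatase gene, was counted as lower in liver than in both E8.5 libraries (-2.0002 and -2.17). These differences, and the Dusp4 one in liver minus dorsal pancreas (-2.08), lay close to the limit of 2. Median-ratio rescaling shifted the median of all loci by 0.19 and 0.17 in liver minus ventral and dorsal pancreas. Dusp4, another MAP kinase phosphatase, stood at 3.16 FPKM in liver and 16.6 in dorsal pancreas. The relay genes between receptor and target, of which 14 of 19 were measured, had none counted in any comparison, where between 0.0485% and 5.46% of all loci were counted, so that 0 of 14 is near the background.

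**Figure D5:**
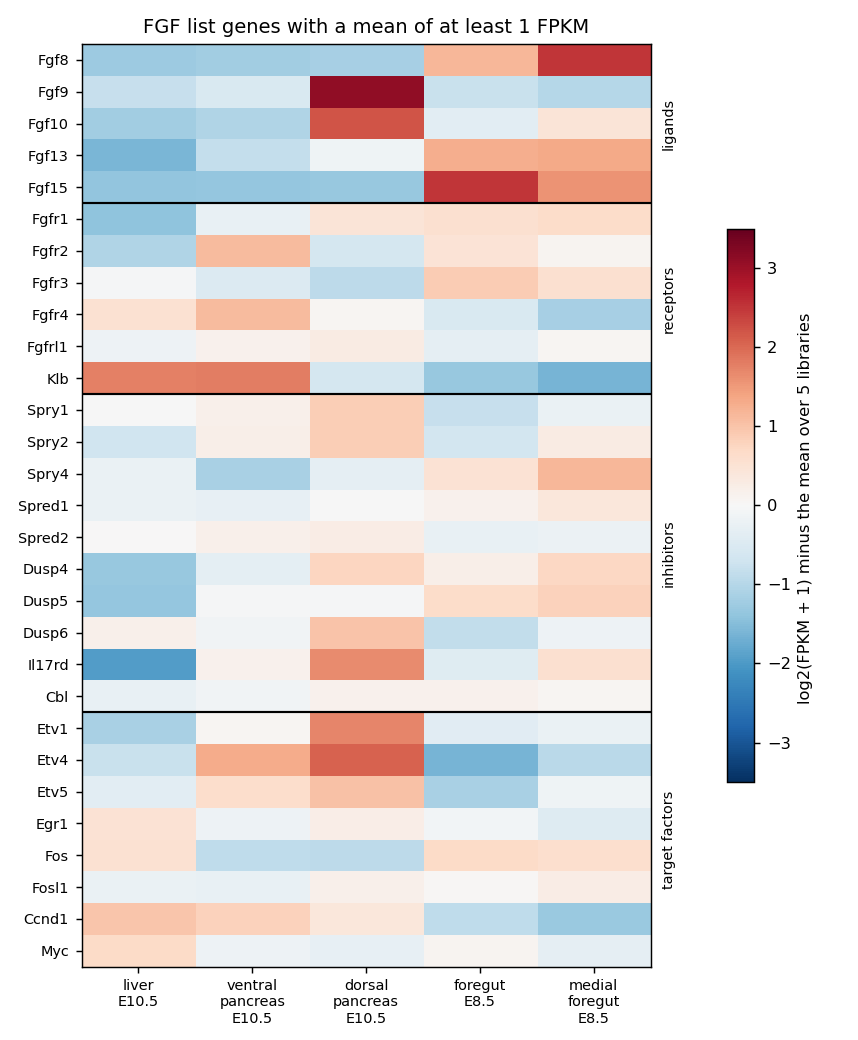
Colours give log2(FPKM + 1) of each gene minus its mean over the 5 libraries (columns), for list genes with a mean of at least 1 FPKM, grouped into ligands, receptors, inhibitors and target factors. Dorsal pancreas has the highest values of Fgf9, Fgf10, Il17rd, Dusp6 and all 3 PEA3 factors, and Klb is high in liver and ventral pancreas.

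The 2 E8.5 tissues differed little, and some FGF genes lay towards either end of that difference. No FGF gene of the lists met the size rule in foregut minus medial foregut, where 0.0404% of all loci were higher and 0.00808% lower. Over 11183 loci with a mean of at least 1 FPKM, the size of the difference had a median of 0.15, and 95% were under 0.65. Fgf10 differed by -0.83 (1.78 FPKM in foregut and 3.96 in medial foregut), the 121st lowest of 12375 loci, and Etv4 by -0.69 (4.41 and 7.75 FPKM), the 260th lowest. Among the other FGF genes, Fgf8 differed by -1.32, the 11th lowest, Il17rd by -0.99, Etv5 by -0.98 and Spry2 by -0.93. At the other end, Fgf15 differed by 0.94 (13.9 FPKM in foregut and 6.75 in medial foregut), the 105th highest, the heparan sulfatase gene Sulf2 by 0.81 and Fgfr4 by 0.62. Of the measured ligand genes 2 were higher and 3 lower in foregut, of the receptor genes 4 and 2, and of the target factors 4 and 4. Of the 10 inhibitors 9 were lower in foregut, where 49.4% of all loci were lower, and 8 were with library totals set to 1000000. Etv1 (-0.18), Klb (0.31), Fgf9 (0.23) and Fgfr2 (0.38) were within the range of most loci. None of the 9 smooth muscle and heart markers and none of the 11 mesenchyme markers was higher in foregut, with sums of 5507 against 9374 FPKM and 112 against 167 FPKM. All 8 neural markers found were higher in foregut, with sums of 83.2 against 32.1 FPKM. The part of these cells in the differences was not tested.

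For each of the 6 genes, the 5 loci of most similar pattern were found as those with the smallest root mean square difference of log2(FPKM + 1), centred for each locus, over the 5 libraries among 10487 loci. For Fgf9 they were 3110047P20Rik, Sytl2, Nkx3-2, Col8a1 and Hoxa7, at root mean square differences of 0.16 to 0.34, and the same 5 were found with a pseudocount of 0.1 FPKM. For Fgf10 they were the homeobox gene Tlx1, Prdm1, Col14a1, Foxf1a and Pde5a (0.29 to 0.40), of which 1 was found again with that pseudocount. Nkx3-2 and Foxf1a are also among the mesenchyme markers, and Nkx3-2 had 0.0497 FPKM in ventral and 9.57 FPKM in dorsal pancreas. All neighbours were chosen on these same values, so their levels follow from that choice. The neighbours of Klb were Tmprss6, Abca8b, Onecut2, Ppp4r4 and Nt5e (0.25 to 0.36), with 1 found again. Tmprss6, encoding a liver protease, had 14.2, 10.1 and 1.05 FPKM in liver, ventral pancreas and dorsal pancreas. For Fgfr2 they were Folr1, Tyro3, Ttc12, Sept4 and Tmem145 (0.08 to 0.23), for Etv1 Mboat4, Sez6l2, the agouti gene a, Col11a1 and Syp (0.14 to 0.20), and for Etv4 Mamld1, Sct, Aplp1, Ccdc30 and Rap1gap2 (0.26 to 0.33), with 2, 2 and 1 found again. Sct, encoding secretin, had 3.38, 10.7 and 23.8 FPKM in the E10.5 libraries. The loci of Col8a1, Hoxa7, Onecut2, Ttc12 and a covered 0.339%, 5.78%, 0.984%, 0.747% and 3.34% of the annotated gene.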

How the data were processed

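Per the labels' protocols, poly(A) RNA was primed with random hexamers, without strand marking being described, and read in pairs on an Illumina HiSeq. The authors deposited FPKM values in 1 table, per the file headers. TopHat 1.33, Cufflinks 1.3.0 and the build mm9 appear in the submitters' processing notes without a role. How libraries were scaled to each other is not stated there. Columns were assigned through the column name in each sample's description.

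The members and gene lists (7 FGF lists, 11 marker lists) were chosen with earlier results of these data known. The text names the 6 genes, list genes counted in a comparison or with the largest differences, and all receptors and PEA3 factors. Marker genes named singly, the low ligand genes, Tmprss6 and Sct were given values after these were seen. Depth in reads is unknown: among 51 loci under 0.05 FPKM in both E8.5 libraries the most common ratio was shared by 4, so no counts were recovered and no interval is given. Spans and strands came from GENCODE M21 and RefSeq (GRCm38), whose coordinates were not mixed with mm9. Analyses used Python 3.11.15, pandas 2.3.3, numpy 2.4.6 and matplotlib 3.10.9, and the code of the size rule was checked on simulated data. The simulated noise was assumed, since no replicate exists, so the check says nothing about the error of single libraries. The 7 comparisons used a pseudocount of 1 FPKM; the alternatives were pseudocounts, scalings, size limits, level minimums and complete loci only.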

Additional observations from a re-analysis of the deposited data

Results flagged for a closer look

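Fgf10, Fgfr2 and Etv1 lay in opposite directions from both E8.5 libraries in different E10.5 tissues, with a gap of at least 1. For liver and ventral pancreas 2 of the 6 genes did so, where 9.90% of all loci did. For liver and dorsal pancreas 2 did, where 11.1% did, and for ventral and dorsal pancreas 2, where 2.80% did. These patterns rest on 1 library each, and the differences between them were not tested. Fgf10 differed from foregut and medial foregut by -0.82 and -1.66 in liver and by 2.57 and 1.74 in dorsal pancreas, a gap of -3.39, which is also liver minus dorsal pancreas. In ventral pancreas Fgf10 differed from the E8.5 libraries by -0.68 and -1.51, a gap of -3.25 to dorsal pancreas. Fgfr2 differed from them by -1.53 and -1.14 in liver but by 0.64 and 1.02 in ventral pancreas, a gap of -2.17. It differed by -1.08 and -0.70 in dorsal pancreas, a gap of 1.72 for ventral minus dorsal pancreas. Etv1 differed by -0.74 and -0.92 in liver, against 0.46 and 0.28 in ventral pancreas (gap -1.20) and 2.10 and 1.93 in dorsal pancreas (gap -2.84). The ventral pancreas differences of Etv1, and that of Fgfr2 from foregut (0.64), were small. Over loci with a mean of at least 1 FPKM, 95% of the differences between the 2 E8.5 libraries were under 0.65 in size. The Fgf10 and Etv1 values come from partial loci.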

How the results depend on the processing

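Differences of the 6 genes in 7 comparisons were recomputed under 5 other settings: 194 values stayed on their side of the size rule, 13 no longer met it and 3 newly met it. Among the values that did not meet it, Klb in liver minus ventral pancreas changed sign under median-ratio (0.20) and upper-quartile (0.04) rescaling. A pseudocount of 5 FPKM, which shrinks low genes, ended 10 of these calls: Fgfr2 (-1.97) and Etv4 (-1.70) in liver minus ventral pancreas, Fgf10 (-1.88), Klb (1.60) and Etv1 (-1.70) in liver minus dorsal pancreas, Fgf10 (-1.84) and Klb (1.62) in ventral minus dorsal pancreas, and against E8.5 Klb in liver (1.90) and Klb (1.92) and Etv4 (1.82) in ventral pancreas. Median-ratio rescaling ended Fgfr2 (-1.93) and Etv4 (-1.83) in liver minus ventral pancreas, and upper-quartile rescaling Etv4 (-1.99). In dorsal pancreas minus both E8.5 libraries, Fgf10 (2.05) and Etv1 (2.26) were newly counted with library totals set to 1000000, and Etv1 (2.18) with a pseudocount of 0.1 FPKM. No paired analysis was possible because each tissue had 1 library.

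In the order liver minus ventral, liver minus dorsal, ventral minus dorsal pancreas, foregut minus medial foregut, and liver, ventral and dorsal pancreas minus both E8.5 libraries, 2, 5, 3, 0, 1, 2 and 2 of the 6 genes were counted. With a pseudocount of 5 FPKM the first 3 became 0, 2 and 1, and liver and ventral pancreas against E8.5 became 0. Liver minus ventral pancreas gave 0 under median-ratio rescaling, 1 under upper-quartile rescaling and 1 with complete loci only, which also gave 3 for liver minus dorsal pancreas. Dorsal pancreas against E8.5 gave 4 with totals of 1000000. A size of at least 1 gave 5 in ventral minus dorsal pancreas and 2 and 4 in liver and dorsal pancreas against E8.5. A size of at least 3 gave 0 and 2 in liver against ventral and dorsal pancreas, and 1 in ventral and in dorsal pancreas against E8.5. In ventral minus dorsal pancreas, complete loci only left Fgf9 and Klb counted, without Fgf10. A size of at least 3 left Fgf9 and Fgf10 counted there, without Klb (2.42).

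Of the 65 measured genes of the 7 FGF lists, 6, 10, 5, 0, 7, 6 and 4 were counted in the same order, where 4.01%, 5.46%, 1.68%, 0.0485%, 4.4%, 3.45% and 2.63% of all loci were. A size of at least 1 gave 14, 20, 15, 1, 16, 11 and 18, where 12.8%, 14.7%, 5.75%, 0.743%, 11.3%, 9.69% and 7.16% of all loci were counted. A size of at least 3 gave 1, 4, 3, 0, 1, 1 and 1, where between 0.00808% and 1.94% were. A pseudocount of 5 FPKM gave 2, 5 and 2 in the first 3 and 0 for liver and ventral pancreas against E8.5, median-ratio rescaling gave 3 in the first, and dorsal pancreas against E8.5 gave 7 with a pseudocount of 0.1 FPKM and 9 with totals of 1000000. Leaving out loci partial in GENCODE M21, Fgfr2 included, moved the share of Fgfr1 in medial foregut to 68.3%. Some list medians near 0 changed sign. Under median-ratio rescaling those in liver minus ventral pancreas became 0.055 for relay genes and 0.043 for inhibitors, and those in liver minus dorsal pancreas 0.064 for relay genes and 0.10 for target factors. The receptor median in liver minus dorsal pancreas was -0.021 with no minimum mean, and the target factor median in liver minus ventral pancreas -0.42 at a mean of at least 5 FPKM. With totals of 1000000, an alternative for list medians chosen after seeing the data, the ligand median in liver minus dorsal pancreas moved to -2.14, the receptor median there became -0.19 and the heparan sulfate median in ventral minus dorsal pancreas -0.065, and in foregut minus medial foregut the ligand, relay and target factor medians became 0.088, 0.12 and 0.076. Over the 7 lists and all pairs of libraries compared, 7 of 70 medians changed sign with totals of 1000000, 6 under median-ratio and 1 under upper-quartile rescaling. The ligand median in liver minus dorsal pancreas moved to -0.061 with no minimum, and the bile acid medians to 1.42 and 1.73 in liver and ventral minus dorsal pancreas at a mean of at least 5 FPKM, with 2 genes left. Median-ratio rescaling shifted the median of all loci by 0.19 and 0.17 in liver minus ventral and dorsal pancreas and by -0.11 in ventral pancreas minus foregut, and totals of 1000000 shifted it by -0.20 in liver minus dorsal pancreas, -0.10 in ventral minus dorsal pancreas, -0.13 in liver minus foregut and 0.13 in foregut minus medial foregut. The cause of the changes under rescaling was not tested. Since depth in reads is unknown, how well values under 1 FPKM are measured cannot be stated.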

Other observations

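Among genes that shape heparan sulfate or bind FGF receptors at the cell surface, 22 of 27 listed were measured, and most were counted in no comparison. In liver minus ventral pancreas 3 were counted, in liver minus dorsal pancreas 3 and in ventral minus dorsal pancreas 2, where 4.01%, 5.46% and 1.68% of all loci were. The median in ventral minus dorsal pancreas was 0.05, against 0.01 over all loci. The genes named here are those counted between E10.5 libraries. Flrt3, encoding a membrane protein that promotes FGF signalling, had 5.29, 76.7, 11.7, 39.1 and 34.0 FPKM in liver, ventral pancreas, dorsal pancreas, foregut and medial foregut, the same order of libraries as Fgfr2. It was counted as lower in liver than in ventral pancreas and than in both E8.5 libraries, and as higher in ventral than in dorsal pancreas. Its relative Flrt2 had 8.22, 50.5 and 63.5 FPKM in the E10.5 libraries, in the same order, against 10.4 and 10.2 in the E8.5 libraries. The sulfotransferase gene Hs3st3b1 was at 33.0 FPKM in liver, 15.7 in ventral pancreas, 0.674 in dorsal pancreas, 5.56 in foregut and 5.20 in medial foregut. The glypican gene Gpc2 had 8.27 FPKM in liver, against 42.6 and 46.0 FPKM in the ventral and dorsal buds.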
